A study of Mus musculus with 8 samples.

Results

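The genes described here are 9 genes of vitamin A (retinoid) metabolism and signalling in cultured mouse keratinocytes (KCs). They are Stra6, Dhrs9, Aldh1a3, Crabp1, Crabp2, Cyp26b1, Rara, Rarg and Rxra, chosen by name from the 41457 genes listed for every sample, without use of their measured values. KCs were prepared from tail skin of adult wildtype C57BL/6 mice (C57BL/6J in the methods) and kept untreated in serum-free, low-calcium KC medium for 1 week (4 samples) or 3 weeks (4 samples). The cells of all samples were split when nearly confluent, and their poly(A) RNA was sequenced. The submitters give 4 independent experiments, the paper says that both times used the same batches of KCs, and 3 numbers in the names of the deposited tables (46, 49 and 90, called preparations here) occur at both times. What these numbers stand for is not stated in the sources used here, so their use as preparations is a reading of the names. How many mice went into a preparation is not given in the sources used here. The comparison asks how the retinoid genes of primary KCs differ between a short and a long culture.

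Vitamin A reaches cells as retinol, which is oxidised first to retinal and then to retinoic acid. Retinoic acid enters the nucleus with small binding proteins and activates pairs of a retinoic acid receptor (RAR) and a retinoid X receptor (RXR), which sit on DNA and switch genes on, and enzymes of the CYP26 family remove it again. In epidermis, retinoids are known to hold back cornification and to affect the growth of KCs, and both an excess and a lack of vitamin A disturb the skin barrier.

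The upstream sequences of 4 genes are shown, 2 of them well known for a binding site of RAR and RXR and 2 that fell in these cultures. All are the 250 bases before a RefSeq start site on GRCm38.p6. The first 2 belong to Rarb, on the minus strand at chr14:16575477-16575726, and to Cyp26a1, on the plus strand at chr19:37697558-37697807. Capitals mark the direct repeat known as DR5, in which 5 bases separate a pair of receptor motifs, and in Cyp26a1 it reads on the reverse strand.
Rarb: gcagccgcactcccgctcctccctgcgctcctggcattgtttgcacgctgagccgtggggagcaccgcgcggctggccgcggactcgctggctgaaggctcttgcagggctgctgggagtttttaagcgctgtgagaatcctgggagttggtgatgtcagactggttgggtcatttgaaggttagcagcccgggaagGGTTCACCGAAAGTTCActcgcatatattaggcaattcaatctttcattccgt
Cyp26a1: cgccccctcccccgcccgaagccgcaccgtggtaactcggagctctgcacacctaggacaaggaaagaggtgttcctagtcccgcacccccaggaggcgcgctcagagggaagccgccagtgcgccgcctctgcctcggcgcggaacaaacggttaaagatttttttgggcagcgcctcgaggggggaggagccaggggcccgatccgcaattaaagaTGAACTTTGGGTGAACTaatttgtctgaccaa
The repeat in Rarb begins 53 bases before the start site and that in Cyp26a1 32 bases before it. A search of both strands found DR5 in 32 of the 32851 promoter windows of the mouse table (0.0974%), each reaching from 250 bases before to 50 bases after a start site. The table held 15 windows of 7 of the 9 genes, all but Crabp2 and Aldh1a3, and none of them contained DR5. The other 2 sequences belong to Crabp1, on the plus strand at chr9:54764498-54764747 with GGGCGG (the GC box, on either strand) in capitals, and to Rarg, on the minus strand at chr15:102257523-102257772 with the single receptor motif AGGTCA (here on the reverse strand) in capitals.
Crabp1: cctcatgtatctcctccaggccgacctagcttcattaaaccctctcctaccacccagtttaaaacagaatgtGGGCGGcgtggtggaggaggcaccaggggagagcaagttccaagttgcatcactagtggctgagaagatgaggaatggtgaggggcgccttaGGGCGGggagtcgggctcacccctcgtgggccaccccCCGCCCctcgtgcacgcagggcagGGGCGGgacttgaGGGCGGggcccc
Rarg: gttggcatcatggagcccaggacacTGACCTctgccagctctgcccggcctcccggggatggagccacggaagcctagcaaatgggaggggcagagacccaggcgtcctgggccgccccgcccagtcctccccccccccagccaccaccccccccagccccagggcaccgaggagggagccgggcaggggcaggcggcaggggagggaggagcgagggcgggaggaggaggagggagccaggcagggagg
The Crabp1 sequence held 5 GC boxes. GGGCGG occurred in 11 of the 15 windows of these genes, beside 35.7% of all windows, and AGGTCA in 4 of the 15, beside 16.3% of all windows. Some windows of Rara and of Stra6 overlapped, so the 15 are not all separate promoters and a site can be counted more than once. These matches describe letters only.

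At 3 weeks, 2 of the 9 genes fell and 0 rose. Crabp1, which encodes a cytoplasmic retinoic acid binding protein, was 2.65-fold lower, and Rarg, which encodes the RAR known to predominate in epidermis, was 1.48-fold lower. The call of Rarg was lost in 10 of 19 alternative fits, whereas that of Crabp1 was kept in all 19. Dhrs9, Aldh1a3, Crabp2, Cyp26b1, Rara and Rxra did not pass the test, and Stra6 had too few reads to be tested. The test was edgeR's quasi-likelihood test over all 12590 genes with enough reads, with a Benjamini-Hochberg adjusted p under 0.05 as the threshold. At an unadjusted p under 0.05, and with DESeq2 or limma, the number that rose was also 0. The edgeR test called 32.8% of those genes, 17% lower and 15.7% higher, so that 2 of 8 tested genes is not more than the share among all genes. The median log2 fold change (3 weeks over 1 week) of the 8 genes was -0.58, beside 0.03 for all genes tested. Levels are given as RPKM, the reads on the exons of a gene scaled by exon length and by how many reads of the sample were mapped. Comparisons of RPKM between genes depend on the annotated exon length of each gene. The test also scaled each sample by a TMM factor, 1.03 to 1.07 at 1 week and 0.853 to 0.997 at 3 weeks. RPKM leaves this factor out, which sets the 3 weeks samples lower than in the test. The samples held 13896807 to 20026084 exon reads. In RNA from whole cultures, fewer cells of a type and less RNA per cell cannot be told apart.

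At 1 week the mean RPKM values fell into 3 tiers. Aldh1a3 (49.4), Crabp1 (21.4), Rarg (19.998), Crabp2 (19.0) and Rxra (17.2) formed the first tier, and each overlapped in range with the next. Dhrs9 (2.88), Rara (2.00) and Cyp26b1 (1.70) lay below without overlap to Rxra, and Stra6 (0.121) lay apart from all. At 3 weeks the order was Aldh1a3 (22.5), Rxra (17.4), Rarg (12.2), Crabp2 (11.2), Crabp1 (7.33), Rara (2.82), Dhrs9 (1.48) and Cyp26b1 (1.15), each overlapping in range with the next, and Stra6 (0.0342) was again below all others. Crabp1 thus moved from place 2 to place 5.

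**Figure D1:**
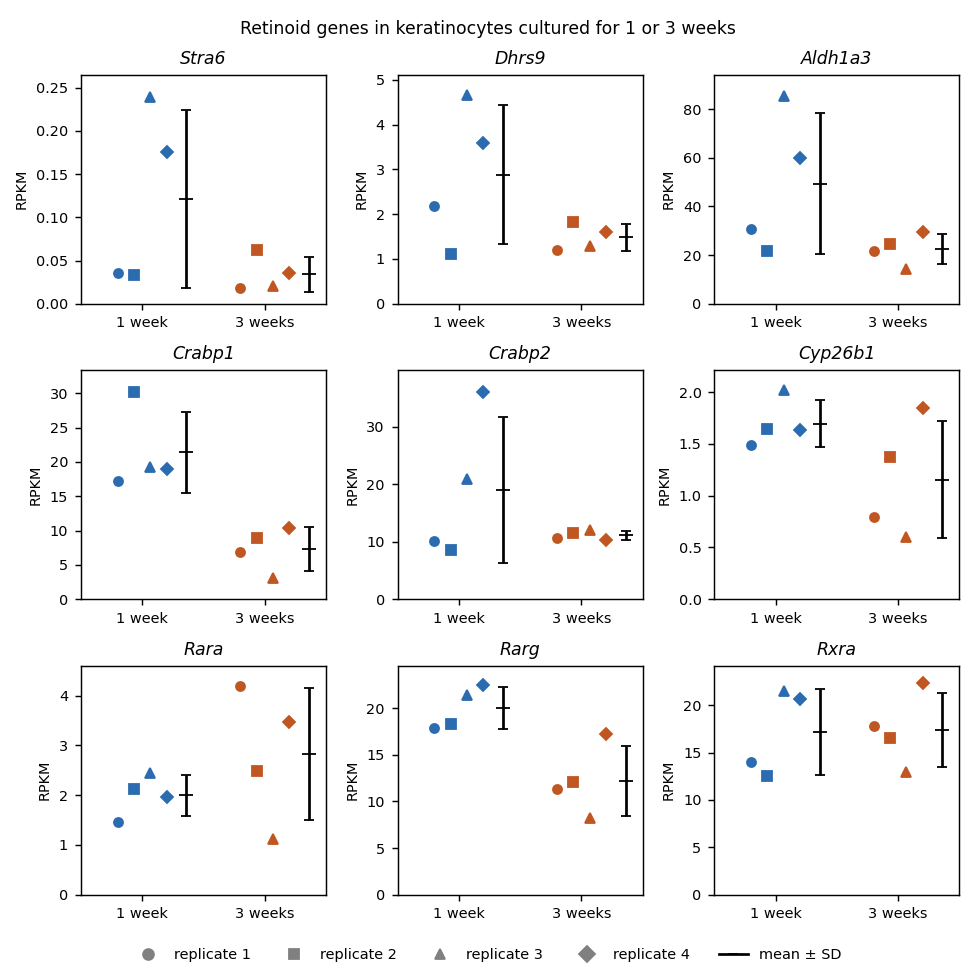
RPKM of the 9 retinoid genes in each sample (points, shaped by replicate number), with the mean and SD of the 4 samples per time point beside them and a separate linear y axis per gene that starts at 0. Only Crabp1 and Rarg show no overlap between 1 week and 3 weeks, and the narrow gap of Rarg does not hold with TMM scaling. Of all genes tested, 37% show no overlap in RPKM, and 26.2% are lower at 3 weeks without overlap. For Stra6, Dhrs9, Aldh1a3 and Crabp2 the spread at 1 week comes from high values in replicates 3 and 4.

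Stra6 encodes the membrane receptor that takes retinol from its carrier in blood. It lies on chromosome 9 from 58063788 to 58153996 on the plus strand and overlaps Ccdc33 on the opposite strand. Its RPKM values were 0.0360, 0.0333, 0.239 and 0.175 in 1 week replicates 1 to 4 and 0.0184, 0.0626, 0.0209 and 0.0350 in 3 weeks replicates 1 to 4. The 2 highest samples were 1 week replicates 3 and 4, and the other samples of both times overlapped. These values rest on 59 reads in all, with 2 to 20 per sample, and 3 reads correspond to 0.0250 to 0.0359 RPKM. A fit without the filter on low reads gave a log2 fold change of -1.67 (SE 0.74, edgeR adjusted p = 0.156).

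The list of retinoid uptake, binding and storage held 15 genes, of which 4 were tested, 1 fell and 0 rose by edgeR. Of all genes tested, 17% fell and 15.7% rose. Lpl, which encodes lipoprotein lipase, fell from 0.880 ± 0.248 to 0.170 ± 0.0955 RPKM (mean ± SD, n = 4 each; log2 fold change -2.23, SE 0.36, edgeR adjusted p = 0.00210). It was low at either time and the ranges did not overlap. Lrp1, which encodes a receptor that takes up lipoproteins, had an unadjusted p of 0.0323 (1.55, SE 0.61, edgeR adjusted p = 0.0825), and DESeq2 called 1 gene of this list higher and limma 0. Lrat, whose product stores retinol as esters, had 21 reads in all 8 samples and was not tested.

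Dhrs9 encodes a short-chain dehydrogenase that is known to oxidise retinol to retinal, and lies on chromosome 2 from 69380445 to 69404533 on the plus strand. Its RPKM values at 1 week were 2.18, 1.11, 4.65 and 3.59, and at 3 weeks 1.19, 1.83, 1.29 and 1.61. The 3 highest values belonged to 1 week, but 1 week replicate 2 was the lowest of all. The log2 fold change was -0.80 (SE 0.39, edgeR adjusted p = 0.147). Without 1 week replicate 2 it was -1.08 and passed the test (edgeR adjusted p = 0.0222). Within preparations 46, 49 and 90, the difference in log2 CPM (reads scaled to the size of the library) was -0.77, -1.20 and -1.05.

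Of 19 genes of retinol and retinal interconversion, 13 were tested, 2 rose and 3 fell, beside 15.7% and 17% of all genes tested. Rdh10, the retinol dehydrogenase known as the main retinol oxidase of the embryo, rose from 5.01 ± 1.47 to 8.94 ± 2.26 RPKM (1.01, SE 0.25, edgeR adjusted p = 0.0153). Dhrs3, which works with RDH10 and turns retinal back to retinol, rose from 1.17 ± 0.372 to 2.18 ± 0.936 RPKM (1.04, SE 0.33, edgeR adjusted p = 0.0380). The ranges of the 2 times overlapped for both. The call of Rdh10 was lost without 1 week replicate 1 (0.94, adjusted p = 0.0505), with the preparation number as a block (0.74, adjusted p = 0.0866) and in the same 6 samples without the block (0.75, adjusted p = 0.0839). That of Dhrs3 was lost without 1 week replicate 1, 2 or 3 or 3 weeks replicate 2 or 4 (0.77 to 1.11, adjusted p = 0.0638 to 0.113), and in 4 of the 11 other alternatives.

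Rdh11 and Rdh12, neighbouring genes on chromosome 12 for enzymes that reduce retinal, fell from 43.9 ± 9.87 to 20.7 ± 5.39 RPKM (-0.93, SE 0.23, edgeR adjusted p = 0.0146) and from 4.70 ± 2.08 to 0.688 ± 0.116 RPKM (-2.60, SE 0.36, edgeR adjusted p = 0.000971). Adh7, an alcohol dehydrogenase that can oxidise retinol, fell from 5.03 ± 1.89 to 0.168 ± 0.0218 RPKM (-4.73, SE 0.35, edgeR adjusted p = 0.000180). The ranges of the times did not overlap for any of the 3. The call of Rdh11 was lost with the replicate number as a block (-0.93, edgeR adjusted p = 0.0534). Only 18.9% of the reads counted for Adh7 mapped to it uniquely, and it overlaps an antisense gene, so its level is uncertain.

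Aldh1a3 encodes a retinal dehydrogenase, which makes retinoic acid from retinal. It lies on chromosome 7 from 66390890 to 66427517 on the minus strand. At 1 week, replicates 1 to 4 had 30.8, 21.7, 85.3 and 59.8 RPKM, against 21.5, 24.7, 14.4 and 29.3 at 3 weeks. Of the 1 week samples, 3 were above all 3 weeks samples, and replicate 2 lay among them. The mean was 49.4 ± 28.9 RPKM at 1 week and 22.5 ± 6.28 at 3 weeks, and the log2 fold change of -0.99 (SE 0.40) did not pass the test (edgeR adjusted p = 0.0856). Without 1 week replicate 2 it was -1.24 (edgeR adjusted p = 0.0269), and DESeq2 on all samples gave -0.98 (adjusted p = 0.0433). The log2 CPM difference within the 3 preparations was -0.42, -1.66 and -0.93.

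Aldh1a3 held nearly all the reads of its family. Aldh1a1 had 53 reads over all samples and Aldh1a2 had 29, and neither was tested. Of the 6 synthesis genes, 3 were tested and 1 rose, beside 15.7% of all genes tested. This was Aldh1a7, a gene close in sequence to Aldh1a1, which rose from 0.0750 ± 0.0731 to 1.19 ± 0.634 RPKM (4.01, SE 0.70, edgeR adjusted p = 0.00292). Aldh1a7 had 0 to 7 reads per sample at 1 week, so the size of its rise is uncertain. The function of its product in retinoid metabolism is not settled.

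Crabp1 lies on chromosome 9 from 54764748 to 54773110 on the plus strand. Its product binds retinoic acid in the cytoplasm and is thought to buffer it and to pass it to breakdown. The RPKM values were 17.2, 30.1, 19.3 and 19.0 in 1 week replicates 1 to 4 and 6.82, 8.95, 3.11 and 10.4 in 3 weeks replicates 1 to 4, from 222 to 498 and 41 to 123 exon reads. Every 1 week sample was above every 3 weeks sample. The mean fell from 21.4 ± 5.91 to 7.33 ± 3.18 RPKM (mean ± SD, n = 4 each), a log2 fold change of -1.41 (SE 0.32, edgeR adjusted p = 0.00958). In RPKM, the groups did not overlap in 37% of the genes tested, and in 26.2% the 3 weeks samples were the lower ones. The fall held in all 19 alternatives (adjusted p = 0.000276 to 0.0306), with a log2 fold change from -1.60 to -1.20 when single samples were left out. Within the 3 preparations the log2 CPM difference was -1.22, -0.97 and -0.76.

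Crabp2 encodes the related protein that delivers retinoic acid to RAR in the nucleus, and lies on chromosome 3 from 87948666 to 87953376 on the plus strand. The 1 week samples had 10.2, 8.63, 21.0 and 36.1 RPKM, the 3 weeks samples 10.7, 11.6, 12.0 and 10.3. At 1 week, replicates 3 and 4 stood above and replicates 1 and 2 just below the narrow range at 3 weeks. The coefficient of variation was 66.8% at 1 week and 7.08% at 3 weeks. The log2 fold change was -0.59 (SE 0.42, edgeR adjusted p = 0.304), and it was -0.08 without 1 week replicate 4. Within the 3 preparations it was 0.17, -0.72 and -1.71 on the log2 CPM scale.

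Fabp5 encodes the fatty acid binding protein that can carry retinoic acid to PPAR delta (Ppard), a receptor that also pairs with RXR. The 4 samples of 1 week had 40.6, 39.5, 74.4 and 117 RPKM, whereas those of 3 weeks had 8.86, 12.7, 18.6 and 12.4. The groups were far apart, and the gene fell (-2.18, SE 0.41, edgeR adjusted p = 0.00391), with 78.5% of its reads mapping uniquely. All 3 binding protein genes were tested and 2 of them, Crabp1 and Fabp5, fell, beside 17% of all genes tested.

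The proportion of Crabp2 to Fabp5 within a sample differed between the times. The RPKM ratio at 1 week was 0.251, 0.219, 0.282 and 0.309, against 1.21, 0.915, 0.645 and 0.831 at 3 weeks. All 3 weeks samples were above all 1 week samples. In RPKM, Fabp5 clearly exceeded Crabp2 at 1 week, and the 2 genes were closer at 3 weeks. RPKM divides by the annotated exon length, 3567 bases for Fabp5 and 1322 for Crabp2. In reads, Fabp5 had 589 to 1091 and Crabp2 200 to 264 at 3 weeks. The size of the ratio thus depends on these lengths, but its change between the times does not. On the log2 scale the mean was -1.93 ± 0.215 at 1 week and -0.19 ± 0.374 at 3 weeks (SD, n = 4 each), a difference of 1.74 (two-sided exact permutation test, p = 0.0286, the smallest that 70 arrangements allow, and 0.0286 when adjusted over the 2 ratios tested). With unique reads the difference was 1.77.

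**Figure D2:**
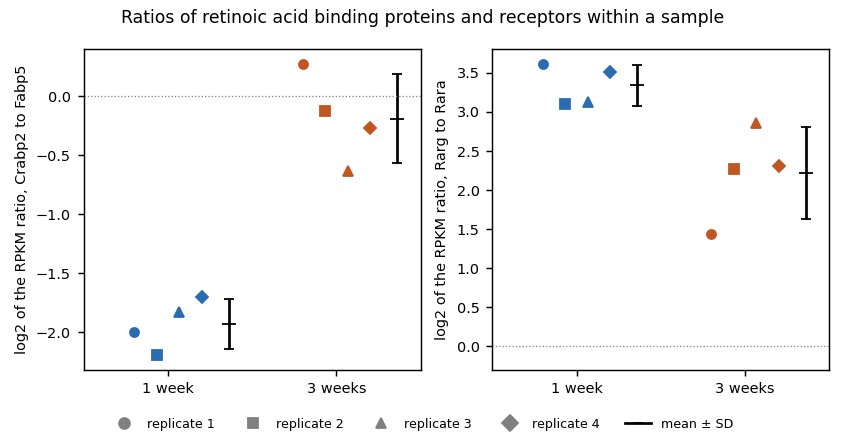
Log2 of the RPKM ratio of Crabp2 to Fabp5 (left) and of Rarg to Rara (right) in each sample, with the mean and SD of the 4 samples per time point and a dotted line where both genes have the same RPKM. The first ratio is higher and the second lower in every 3 weeks sample than in any 1 week sample.

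Cyp26b1 encodes a cytochrome P450 enzyme that breaks down retinoic acid, and lies on chromosome 6 from 84571414 to 84593908 on the minus strand. After 1 week the samples had 1.49, 1.64, 2.02 and 1.63 RPKM, and after 3 weeks 0.792, 1.38, 0.603 and 1.84. Of the 3 weeks samples, 3 were below all 1 week samples and replicate 4 was within their range. The log2 fold change was -0.42 (SE 0.30, edgeR adjusted p = 0.327). It was the only CYP26 gene with more than 1 read in all, since Cyp26a1 had 1 read and Cyp26c1 had 0 reads, which allows up to 0.120 RPKM per sample (3 reads, counting error only). Cyp2s1, another P450 gene for which retinoic acid is a known substrate, fell from 0.878 ± 0.353 to 0.0694 ± 0.0250 RPKM (-3.47, SE 0.39, edgeR adjusted p = 0.000469), although reads of the lincRNA gene Gm26707, which overlaps it on the opposite strand, may be counted with it. Cyp2s1 had 3 to 9 reads per sample at 3 weeks, so the size of its fall is uncertain.

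Rarg lies on chromosome 15 from 102234938 to 102257517 on the minus strand. Its RPKM was 17.9, 18.3, 21.4 and 22.4 in the 1 week samples, against 11.4, 12.1, 8.17 and 17.3 in the 3 weeks samples. The groups did not overlap in RPKM, though 3 weeks replicate 4 came close to the lowest 1 week sample. This narrow gap does not hold with the TMM scaling of the test. The mean fell from 19.998 ± 2.24 to 12.2 ± 3.77 RPKM (log2 fold change -0.56, SE 0.19, edgeR adjusted p = 0.0455). The call was lost when any sample but 3 weeks replicate 4 was left out (-0.62 to -0.47, adjusted p = 0.0640 to 0.113), and without that sample it was -0.75 (adjusted p = 0.00408). Within preparations 46, 49 and 90 the log2 CPM difference was -0.56, -0.69 and -0.28.

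Rara encodes RAR alpha, the more widely expressed receptor, and lies on chromosome 11 from 98927818 to 98974942 on the plus strand. The samples had 1.46, 2.12, 2.44 and 1.97 RPKM after 1 week, and 4.19, 2.50, 1.13 and 3.48 after 3 weeks. Of the latter, 3 were above all 1 week samples, and 3 weeks replicate 3 was the lowest of all 8. The log2 fold change was 0.64 (SE 0.33, edgeR adjusted p = 0.169), and without 3 weeks replicate 3 it was 0.86 (edgeR adjusted p = 0.0214). Within the 3 preparations the log2 CPM difference was 1.60, 0.16 and 0.90.

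Rarg exceeded Rara in every sample, but by less at 3 weeks. At 1 week the RPKM ratio of Rarg to Rara was 12.3, 8.61, 8.74 and 11.4, and at 3 weeks 2.71, 4.84, 7.23 and 4.97, without overlap. The mean log2 ratio was 3.34 ± 0.262 and 2.22 ± 0.585 (SD, n = 4 each), a difference of -1.12 (two-sided exact permutation test, p = 0.0286, and 0.0286 adjusted over the 2 ratios). Of the summed RPKM of the 3 RAR genes, Rarg made up 89.5 to 92.4% at 1 week and 73.0 to 87.6% at 3 weeks, and Rara 7.52 to 10.4% and 12.1 to 26.9%. Rarb, the receptor gene that retinoic acid itself is known to induce through the DR5 element printed above, had 1 to 3 reads per sample and at most 0.248% of the sum.

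Rxra encodes RXR alpha, the main RXR of skin and the partner of RAR on DNA. It lies on chromosome 2 from 27676440 to 27762957 on the plus strand. At 1 week 14.0, 12.6, 21.5 and 20.7 RPKM were found, and at 3 weeks 17.8, 16.6, 12.9 and 22.3. The ranges almost coincided, and the log2 fold change was 0.17 (SE 0.21, edgeR adjusted p = 0.564). Rxrb had 8.42 to 13.1 RPKM at 1 week and 8.11 to 10.01 at 3 weeks (-0.03, SE 0.18, edgeR adjusted p = 0.910, with either sign when single samples were left out), and Rxrg had 2 reads in all. Of the 6 receptor genes, 4 were tested, and 1 (Rarg) fell, beside 17% of all genes tested.

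Among 13 other nuclear receptors that pair with RXR, 7 were tested, 1 rose and 1 fell, beside 15.7% and 17% of all genes tested. Nr1h2, which encodes the oxysterol receptor LXR beta, rose from 14.6 ± 0.379 to 17.3 ± 1.07 RPKM (0.41, SE 0.11, edgeR adjusted p = 0.0178), a call that was lost without 1 week replicate 2, 3 or 4 or 3 weeks replicate 2 (0.39 to 0.40, adjusted p = 0.0501 to 0.0566) and with the replicate or the preparation number as a block (adjusted p = 0.0862 and 0.155). Nr4a1, an immediate early gene, fell from 2.64 ± 0.350 to 0.935 ± 0.312 RPKM (-1.35, SE 0.23, edgeR adjusted p = 0.00258). Of 14 tested genes of receptor coregulators, only Kat2b, which encodes the histone acetyltransferase PCAF, was called, beside 32.8% of all genes tested. It rose from 6.83 ± 0.809 to 12.5 ± 5.15 RPKM (1.01, SE 0.24, edgeR adjusted p = 0.0128).

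**Figure D3:**
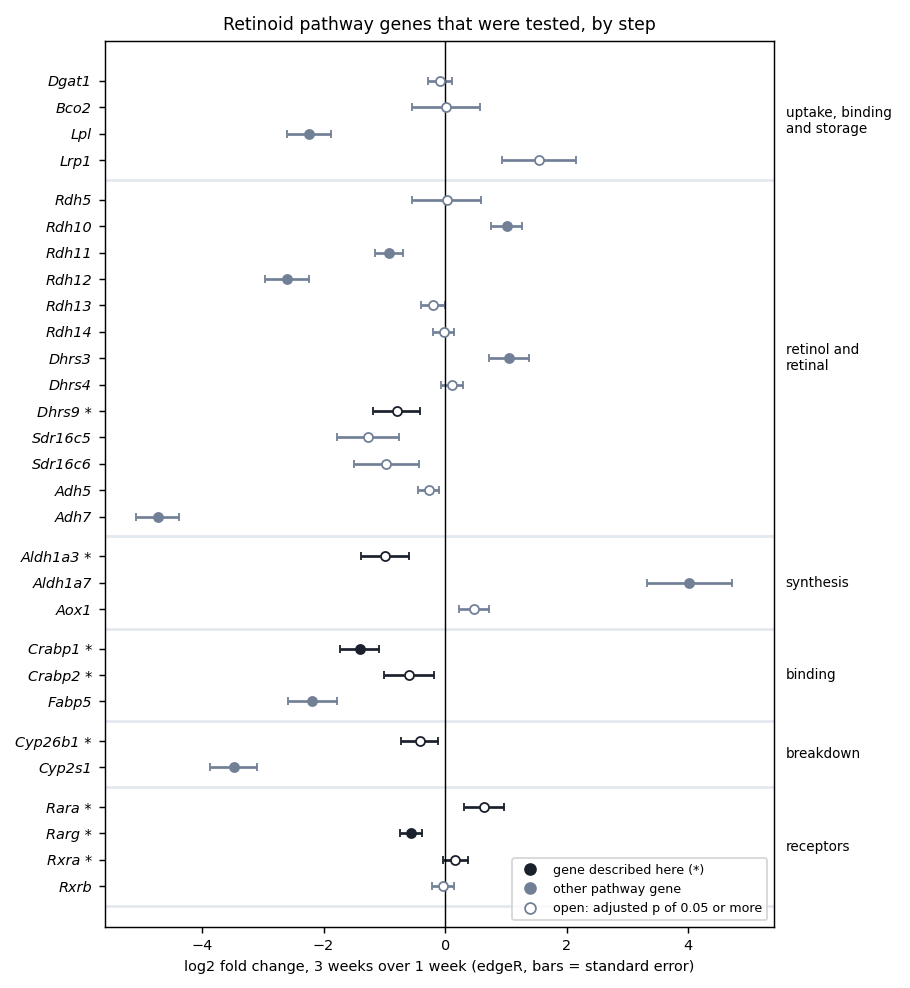
Log2 fold change (3 weeks over 1 week, x axis) with its standard error for the 29 tested genes of 6 retinoid lists, ordered by step from uptake to receptors. Filled points passed the edgeR test, and black points with an asterisk are the 8 tested genes of the 9 described here.

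The 6 retinoid lists together held 53 genes. Of these, 29 were tested, 3 rose and 8 fell, with a median log2 fold change of -0.27. Without the 9 genes described here, 21 were tested, 3 rose and 6 fell, with a median of -0.08. The 11 calls among 29 genes are 37.9%, beside 32.8% of all genes tested.

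Of 17 genes that retinoic acid is known to regulate, 9 were tested and 3 rose (Tgm2, Dhrs3 and Krt19), beside 15.7% of all genes tested, with a median log2 fold change of 0.03 for the 9. The number that rose was 1 to 3 when single samples were left out. Tgm2, which encodes tissue transglutaminase, had 0.566 to 3.22 RPKM at 1 week, against 16.1 to 40.1 at 3 weeks. The groups were far apart (3.97, SE 0.50, edgeR adjusted p = 0.000712), but only 29.5% of its reads mapped uniquely and it overlaps Rprd1b on the opposite strand. Krt19, a keratin of simple epithelia and hair follicles, had 0.680 to 1.61 RPKM at 1 week and 1.19, 1.28, 2.95 and 8.26 at 3 weeks, with overlap (1.87, SE 0.63, edgeR adjusted p = 0.0491). Its call was lost in 14 of 19 alternatives (adjusted p = 0.0501 to 0.300), among them the omission of any 1 week sample or of 3 weeks replicate 3 or 4. The log2 fold change was 1.02 without 3 weeks replicate 4 and 1.13 with the preparation number as a block. Rarb and Cyp26a1, the genes with a DR5 element shown above, stayed near 0 at both times.

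All 6 genes of the PPAR delta route of retinoic acid were tested, and 4 of them rose while Fabp5 fell, beside 15.7% of all genes tested that rose and 17% that fell. Plin2, which encodes a coat protein of lipid droplets, had 92.0, 79.1, 119 and 82.3 RPKM at 1 week, against 259, 271, 253 and 129 at 3 weeks (1.47, SE 0.27, edgeR adjusted p = 0.00346). Angptl4, an inhibitor of lipoprotein lipase, had 2.02, 1.92, 5.35 and 3.07 RPKM at 1 week, against 10.9, 10.03, 9.32 and 12.3 at 3 weeks (1.95, SE 0.31, edgeR adjusted p = 0.00200). In both genes every 3 weeks sample was above every 1 week sample. Pdk4, a kinase that restrains the use of glucose, rose from 0.0464 ± 0.0203 to 1.05 ± 0.239 RPKM (4.59, SE 0.39, edgeR adjusted p = 0.000211). At 1 week Pdk4 had only 1 to 4 reads per sample, so the size of its rise is uncertain. Cpt1a, which brings fatty acids into mitochondria, rose from 5.30 ± 1.18 to 17.3 ± 10.1 RPKM (1.85, SE 0.34, edgeR adjusted p = 0.00365). Ppard itself had 10.7 to 20.01 RPKM at 1 week and 6.85 to 14.9 at 3 weeks (-0.23, edgeR adjusted p = 0.537). These 4 genes also respond to other receptors and to fatty acids, and neither retinoic acid nor receptor activity was measured.

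**Figure D4:**
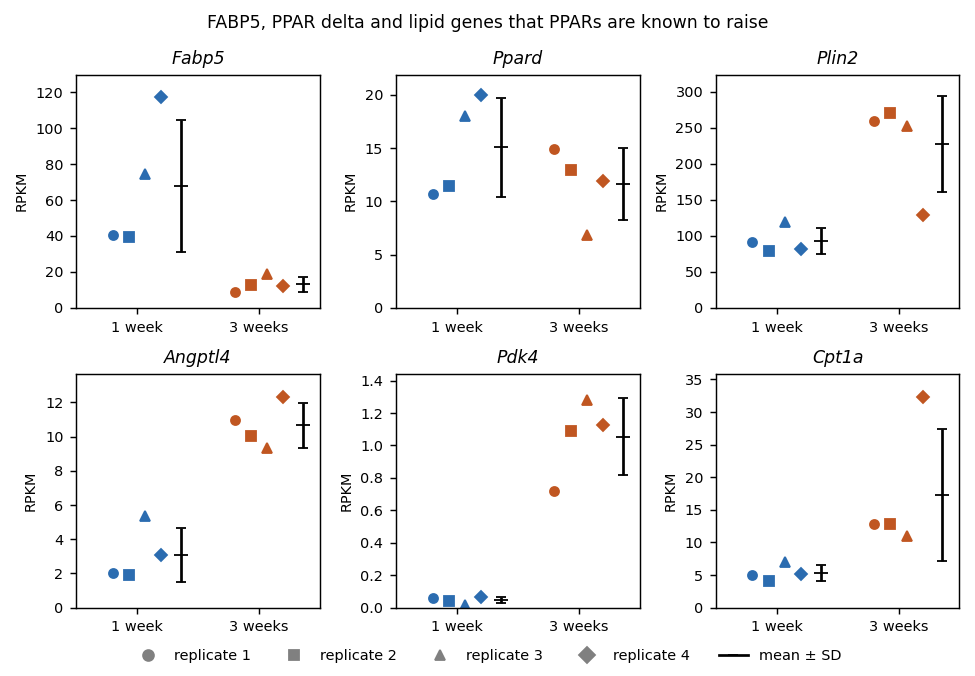
RPKM of Fabp5, Ppard and 4 lipid genes known to be raised by PPARs, per sample, with the mean and SD of the 4 samples per time point and linear y axes from 0. Fabp5 is lower and Plin2, Angptl4, Pdk4 and Cpt1a are higher in all 3 weeks samples, whereas the Ppard samples overlap.

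Several of the 9 genes shared their highest or lowest samples. In 5 of them (Stra6, Dhrs9, Aldh1a3, Crabp2 and Rarg) 1 week replicates 3 and 4 were the 2 highest of the 8 samples, a pattern found in 4 of the 8 tested genes described here (all of these but Stra6) and in 13.9% of all genes tested. The 2 shares are not fully alike, since 6 of the 8 genes had a negative log2 fold change, against 6072 of all 12590. Whether the genes share the pattern beyond this was not tested. The summed RPKM of 8 suprabasal KC markers was 325 and 390 in these 2 samples, 72.3 and 103 in the other 1 week samples and 51.4 to 164 at 3 weeks. Most of this sum came from Dmkn and Sbsn, and only 7.30% of the reads counted for Sbsn mapped to it uniquely. The sum of 7 melanocyte markers was 16.3 and 21.5 in the same 2 samples and 1.66 to 6.04 in all others. The part of these cells in the retinoid values was not tested.

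In 5 genes (Aldh1a3, Crabp1, Cyp26b1, Rara and Rarg) 3 weeks replicate 3 was the lowest of the 8 samples, that is in 5 of the 8 tested genes, beside 30.0% of all genes tested, whichever way they changed. Its TMM scaling factor was the lowest of all samples (0.853). Without this sample Crabp1 was still called, with its log2 fold change inside the range given above.

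The label of the cells was checked by markers. The summed RPKM of 7 basal KC markers was 12404 to 14643 at 1 week and 7403 to 8582 at 3 weeks, of which 2 fell, Krt5 (-1.32, edgeR adjusted p = 0.00103) and Itga6 (-0.75, edgeR adjusted p = 0.0391, lost without 1 week replicate 3 or 4 or 3 weeks replicate 2, 3 or 4, with up to 0.107). Most of this sum came from Krt5 and Krt14. Krt14 (-0.23), Trp63 (-0.69), Itgb4 (0.40), Col17a1 (0.05) and Cdh1 (0.58) were not called. Of all genes tested, 17% fell and 15.7% rose, which also applies to the markers below. Of 8 suprabasal markers 7 were tested and 2 fell, and of 7 melanocyte markers 5 were tested and 1 fell. Of 8 fibroblast markers 1 fell, with a sum of 3.72 to 6.67 RPKM at 1 week and 2.73 to 5.99 at 3 weeks. Of 6 immune markers 2 were tested and H2-Ab1 rose (2.74, edgeR adjusted p = 0.000801), while Cd207 and Trdc had no read. The sums of the endothelial, Merkel cell and sebocyte markers stayed under 1 RPKM in every sample, and that of 7 hair follicle markers was 51.9 to 74.3 RPKM at 1 week, against 16.8 to 64.1 at 3 weeks. Nearly all of the hair follicle sum came from Sox9, with 47.8 to 70.6 RPKM at 1 week and 14.7 to 59.7 at 3 weeks. Of these 7 markers 4 were tested, 0 rose and 0 fell.

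**Figure D5:**
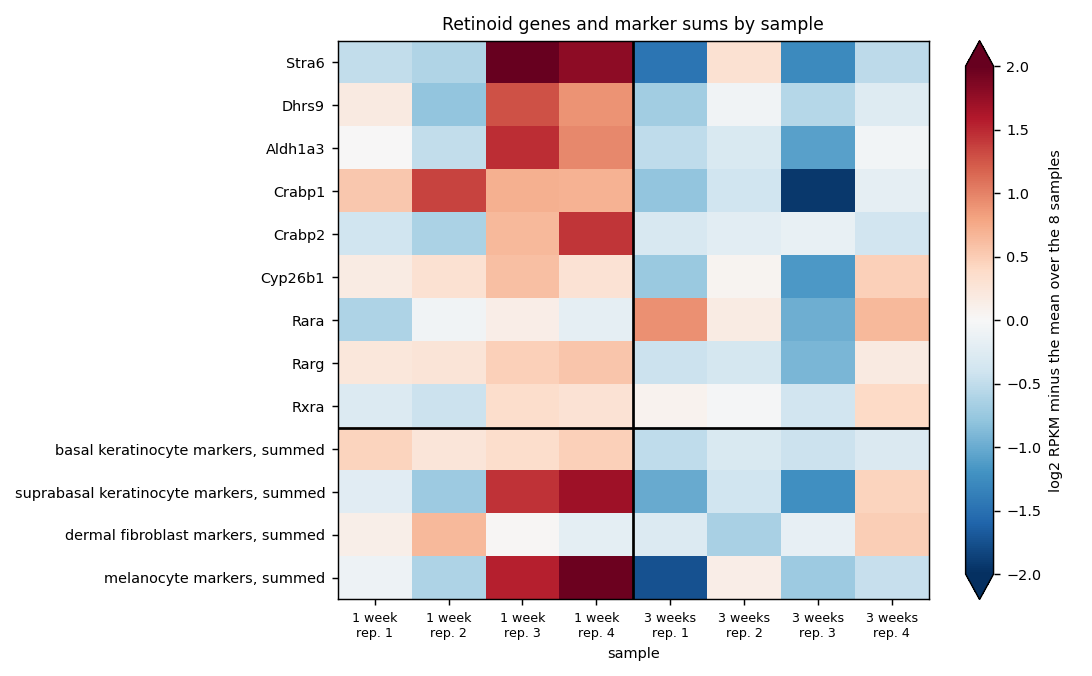
Log2 RPKM minus its mean over the 8 samples (colour, capped at 2 on either side) for the 9 genes (upper rows) and for the summed markers of 4 cell types (lower rows), with samples in columns. Stra6, Dhrs9, Aldh1a3 and Crabp2 are reddest in 1 week replicates 3 and 4, where the suprabasal and melanocyte sums are also highest.

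The genes most like Crabp1 over the 8 samples were sought among the 8573 other tested genes that averaged 10 CPM or more, by the root mean square difference of mean-centred log2 CPM. The closest were Myc (0.292), which encodes a growth-promoting transcription factor, Afap1l1 (0.312), which encodes an actin-associated protein, and Polr1a (0.319), which encodes the largest subunit of RNA polymerase I. The median over all genes compared was 0.915. All 3 fell at 3 weeks, with log2 fold changes of -1.05 for Myc, -1.50 for Afap1l1 and -1.10 for Polr1a (edgeR adjusted p = 0.0129, 0.00123 and 0.0167). As they were picked for their likeness to Crabp1 in the same samples, their fall follows from the choice and is not a separate result.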

How the data were processed

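KCs of 8 samples, 4 cultured for 1 week and 4 for 3 weeks as the labels state, were analysed. The authors sequenced poly(A) libraries (59-base single reads), trimmed adapters and aligned the reads to GRCm38 in the CLC Genomics Workbench (version 12) at default settings. The deposited counts are raw reads per gene (total and unique exon reads, total gene reads), and the deposited RPKM values are those exon reads scaled by exon length and sequencing depth. Strand use and the annotation release are not given in the sources used here, so overlapping genes on opposite strands may share reads.

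The test ran on total exon reads in edgeR 4.0.16 (R 4.3.3, filterByExpr, TMM, glmQLFit and glmQLFTest without pairing, Benjamini-Hochberg over all genes tested, threshold 0.05), with standard errors from the F statistics. The 2 ratios were tested by a two-sided exact permutation test. Fits were tested on simulated counts of 12452 genes for the comparison of 3 weeks with 1 week, in which 87.8% of 4-fold and 40.2% of 2-fold changes among 200 changed genes were recovered with 1 false call. The measured data had a far larger share of called genes, 4127 of 12590. As the adjusted threshold depends on that share, these recovery rates do not carry over to the measured comparison. Where nothing says that samples came from separate mice, p-values measure the spread between these samples only.

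The 9 genes were chosen by name and not by their measured values, but they and the lists were chosen when earlier results of these data were already known. The counts in the lists are description, and no test of a list as a set was run. Named are the 9 genes, every gene of the retinoid lists past the threshold, up to 4 genes with the smallest p in each other list, and the 3 genes most like the called gene with the largest rise or fall. The marker genes Krt5, Itga6 and H2-Ab1 are named to check the cells. Alternatives were DESeq2 1.42.0, upper-quartile normalization, other filters on low counts, unique exon or total gene reads, limma 3.58.1 on log2(RPKM + 0.1) or log2(RPKM + 1), blocks by replicate or preparation number and the omission of each sample. Promoters are those of RefSeq, and coordinates of genes those of the deposited tables. TPM and other columns were not used. Of the lists, 1 gene is not reported here and was left out of their counts. Figures were drawn with matplotlib 3.10.9 in Python 3.11.15.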

Additional observations from a re-analysis of the deposited data

Results flagged for a closer look

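In 6 of 58 groups of 4 samples (29 genes or ratios at 2 times), 1 sample lay apart from the other 3 by Dixon's test, which chance gives in about 1 in 20 groups. Crabp1 had 30.1 RPKM in 1 week replicate 2, against 17.2 to 19.3 in the other 1 week samples. Rdh10 had 7.18 RPKM in 1 week replicate 3, against 4.01 to 4.51. Kat2b had 5.63 RPKM in 1 week replicate 4, against 7.16 to 7.35. The other 3 all concerned 3 weeks replicate 4. It had 0.312 RPKM of Lpl against 0.110 to 0.139 in the other 3 weeks samples, 129 RPKM of Plin2 against 253 to 271, and 32.3 RPKM of Cpt1a against 10.9 to 12.9. Each of these genes kept its call when the sample named was left out.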

How the results depend on the processing

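No called gene and neither ratio changed direction in any alternative. Crabp1 passed in all 19 and Crabp2, Cyp26b1 and Rxra in none. The causes of the other changes were not tested. Samples with the same replicate number had correlations of their deviations from the group means of -0.227 to 0.249, and 1 of 4 pairs was the best match of both samples. For the 3 pairs with the same preparation number the range was also -0.227 to 0.249, and 2 of 3 pairs were the best match, while the third pair had the negative value. Whether the samples pair by preparation was not settled. With the replicate block, 2867 genes were called in place of 4127, and Rarg was no longer called (-0.59, adjusted p = 0.0533), which left 1 lower gene among the 9 and 0 lower receptors, and 0 higher RXR partners. With the preparation block (3 preparations), Aldh1a3 (-1.03, 0.0345) and Dhrs9 (-1.05, 0.0195) passed and Rarg did not (-0.54, 0.0626). The same 6 samples without a block, an alternative chosen after the data were seen, gave -1.14 for Aldh1a3, -1.09 for Dhrs9 and 0.88 for Rara, all past the threshold, and -0.52 for Rarg, which was not. In both fits uptake had 1 higher gene, synthesis 1 lower, receptors 0 lower and RXR partners 0 higher. Interconversion had 1 higher and 6 lower genes with the preparation block, and 0 and 7 without it, where 1 of the 9 genes and 1 receptor were higher. DESeq2 called Aldh1a3 (-0.98), so that synthesis had 1 lower gene, and uptake 1 higher. Without a filter on low counts, interconversion had 1 higher gene, synthesis 2 and RXR partners 0. With at least 10 counts in every sample, synthesis had 0 higher genes and breakdown 0 lower, as low genes were then not tested. Limma on log2(RPKM + 0.1), which moved the median log2 fold change of all genes to -0.16, called 1313 genes higher and 3089 lower, against 1981 and 2146 by edgeR. With this and with log2(RPKM + 1), interconversion had 1 higher gene, RXR partners 0, retinoic acid responsive genes 1 higher, and coregulators 1 lower gene, and with log2(RPKM + 1) coregulators had 0 higher. With single samples left out, log2 fold changes ranged from -1.24 to -0.60 for Aldh1a3, -1.08 to -0.48 for Dhrs9, 0.39 to 0.86 for Rara, -0.75 to -0.47 for Rarg and -0.13 to 0.086 for Rxrb. The difference of the log2 ratio of Crabp2 to Fabp5 ranged from 1.59 to 1.89 and that of Rarg to Rara from -1.33 to -0.86, with adjusted p = 0.0286 to 0.0571. The counts ranged from 0 to 1 higher and 1 to 3 lower among the 9 genes, 0 to 1 higher in uptake, 0 to 2 higher and 3 to 6 lower in interconversion, 0 to 1 lower in synthesis, 0 to 1 higher and 0 to 1 lower among receptors, 0 to 1 higher among RXR partners, and 1 to 3 higher among responsive genes. Over all genes, 3015 to 4861 were called. Changes of 2-fold can be missed with 4 samples per time point, and Stra6, Rarb and Cyp26a1 had too few reads for a comparison.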
